A study of Homo sapiens with 16 samples.

Results

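The genes described here are 7 small leucine-rich proteoglycan genes (DCN, BGN, ASPN, LUM, FMOD, PRELP and OGN) and MGP, 8 of the 28261 genes listed in at least one bulk table of a kidney organoid series. They were selected on the day 29 against day 21 contrast of these data, in which OGN and MGP ranked 1 and 2 of 27650 genes. The ranking was by size of rise on the log2 scale. Because of this selection, that contrast is given for them as a description without a test. Organoids were grown from UM77-2, an established human embryonic stem cell line, no genotype set the groups apart, and TNFα was the one treatment given. Bulk RNA came from isolated organoid spheroids in 3 tables: set 1 (1 untreated library each on D21, D25 and D29), set 2 (2 untreated libraries, Org1 and Org2, on each of these days), and a TNF table of 4 libraries labelled VC or TNF at 24 h or 48 h, that is, after 24 h or 48 h of TNFα at 5 ng/ml or of vehicle control (VC). Single-cell libraries, 1 labelled D24 Ctrl 24h (here Ctrl) and 1 labelled D24 TNF 24h (here TNF), came from whole wells. The TNF table libraries were of day 25 and the single-cell libraries of day 24. All samples share 1 cell line. Nothing in the labels says that Org1 and Org2 came from separate differentiations, so p-values of set 2 measure the spread between these libraries only.

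Small leucine-rich proteoglycans are secreted proteins whose curved leucine-rich repeat core binds collagen fibrils and growth factors of the TGF-β family, and most carry chondroitin, dermatan or keratan sulfate chains. Stromal fibroblasts are their usual source, they accumulate in the scarred kidney interstitium, and soluble biglycan is known as a ligand of Toll-like receptors. MGP, matrix Gla protein, is no proteoglycan: it is a small vitamin K-dependent matrix protein that inhibits calcification of soft tissue.

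Positions are from GENCODE 44 on GRCh38, matched by the Ensembl identifiers of the files. The proteoglycan genes lay in runs in which family members were adjacent among protein-coding genes. DCN (ENSG00000011465, chromosome 12, 91140484 to 91183217) followed LUM (ENSG00000139329, 91102629 to 91111494) with a gap of 28989 bases, both on the minus strand and in one run with KERA and EPYC. On chromosome 9, OGN (ENSG00000106809, 92383268 to 92404696) and ASPN (ENSG00000106819, 92456205 to 92482506) flanked OMD, with ECM2 next to ASPN. FMOD (ENSG00000122176, 203340628 to 203351758) and PRELP (ENSG00000188783, 203475806 to 203491352) were neighbours on chromosome 1, on opposite strands and 124047 bases apart. BGN (ENSG00000182492, 153494980 to 153509546) lay on the X chromosome and MGP (ENSG00000111341, 14880864 to 14885857) on chromosome 12, far from the LUM and DCN run. OGN and ASPN lie whole within CENPP on the other strand without sharing an exon, whereas MGP shares exon sequence with C12orf60 on the other strand. Because no source used here states the strand setting of the counting, reads of MGP and C12orf60 cannot be fully told apart. C12orf60 lay at log2 values of 1.02 to 1.75 in the set 2 libraries.

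RefSeq promoters were matched for 5 of the 8 genes (OGN, ASPN, BGN, FMOD and PRELP). The 250 bases before the start site are printed for 3 of them, 5′ to 3′ on the gene's strand of GRCh38.p14, with CG dinucleotides in capitals, because these genes stood out in the values that follow and their windows differ widely in CG content. OGN (chr9:92404700-92404949, minus strand, the outer of 2 listed starts) had the largest rise on the log2 scale of those values. ASPN (chr9:92482507-92482756, minus strand) went from 0 reads to detection. BGN (chrX:153494730-153494979, plus strand) was the most abundant per length of annotated exons.
OGN: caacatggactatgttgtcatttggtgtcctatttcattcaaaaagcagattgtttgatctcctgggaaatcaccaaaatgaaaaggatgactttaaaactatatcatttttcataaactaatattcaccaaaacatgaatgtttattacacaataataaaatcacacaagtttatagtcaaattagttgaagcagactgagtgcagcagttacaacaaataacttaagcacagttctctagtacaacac
ASPN: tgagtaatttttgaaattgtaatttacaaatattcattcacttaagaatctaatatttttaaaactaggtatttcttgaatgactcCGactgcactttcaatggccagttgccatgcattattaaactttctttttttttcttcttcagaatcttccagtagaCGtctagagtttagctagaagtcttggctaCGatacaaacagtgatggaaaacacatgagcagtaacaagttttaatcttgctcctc
BGN: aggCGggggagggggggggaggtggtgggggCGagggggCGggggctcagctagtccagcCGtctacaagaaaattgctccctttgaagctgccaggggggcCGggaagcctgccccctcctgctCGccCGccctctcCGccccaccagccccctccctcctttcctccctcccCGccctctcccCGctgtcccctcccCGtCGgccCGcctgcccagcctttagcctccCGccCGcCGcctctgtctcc
The OGN window held 0 CG dinucleotides at a GC content of 31.2%, and 6.06% of all 35116 promoter windows had as few. ASPN held 3 CG dinucleotides at 32.4% GC. BGN held 16 at 74% GC, against a median over all promoters of 11 CG dinucleotides and 58% GC. The TATA box core TATAAA, searched on both strands, occurred in the windows of OGN and FMOD and in 10.7% of all promoters. In both genes it lay on the other strand, reading TTTATA on the gene's own strand. A frame of the NF-κB motif, searched on both strands, occurred in 0 of the 5 matched genes and in 5.07% of all promoters. These matches describe the letters in the windows only.

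Bulk values are log2(CPM + 1), where CPM is a gene's reads scaled to a common library size of 1e6 reads, and library totals ran from 19073609 to 59246286 reads. On this scale the difference of a gene with few reads is understated. The 3 tables were normalized separately, so levels were compared within a table.

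Across the organoid time course all 8 genes were higher in both D29 libraries of set 2 than in both D21 libraries, a pattern that 27.1% of all 27650 genes showed, and this is the contrast that selected them. The largest differences belonged to OGN and MGP, and smaller ones to BGN, LUM and FMOD. Fewer cells of a type and less RNA per cell cannot be told apart in bulk RNA.

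Among the class I genes, DCN encodes decorin, a collagen-binding proteoglycan with 1 chain. DCN had values of 5.59 and 5.36 on D21, 6.97 and 6.85 on D25, then 7.59 and 8.0 on D29, so the days did not overlap and D29 minus D21 was 2.32 (SE 0.14, n = 2 per day). BGN, which encodes biglycan, had 7.13 and 7.02 on D21, 7.85 and 7.95 on D25, then 8.02 and 7.60 on D29. BGN on D25 overlapped with D29, both days were above D21, and D29 minus D21 was 0.73. ASPN, which encodes asporin, had 0 reads in each D21 library, 3 and 1 reads on D25, and 54 and 88 reads on D29. Against a floor of 3 reads per D21 library, ASPN was at least 20.2-fold higher on D29. The change of ASPN therefore came almost wholly after D25, from reads that were low on every day.

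The class II genes were low and differed among themselves. LUM, encoding the keratan sulfate proteoglycan lumican, had 1.12 and 0.80 on D21, 1.29 and 0.80 on D25, then 1.58 and 1.48 on D29. Its D21 and D25 values overlapped and only 16 to 60 reads per library lay behind them. FMOD, which encodes fibromodulin, had 2.47 and 2.57 on D21, 2.54 and 2.31 on D25, then 2.99 and 2.92 on D29, so it stood apart only on the last day. PRELP, which encodes a basic proteoglycan core protein of connective tissue that binds heparan sulfate, had 0.93 and 0.80 on D21, 1.32 and 1.35 on D25, then 2.75 and 3.26 on D29. PRELP did not overlap between any of the days, and its difference was larger from D25 to D29 (1.67) than from D21 to D25 (0.47).

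OGN, the class III gene for osteoglycin (mimecan), had 1.03 and 0.31 on D21, 3.66 and 3.61 on D25, then 5.38 and 5.94 on D29. In reads this was 22 and 6 on D21 against 1228 and 1674 on D29, a D29 minus D21 difference of 4.99 (SE 0.26). MGP had 0.10 and 0.26 on D21, 2.86 and 2.85 on D25, then 4.10 and 4.97 on D29, a difference of 4.35. Only 1 and 5 reads of MGP lay behind the D21 values, against 488 and 838 on D29. Both genes were already well above D21 on D25, with 59.5% of the log2 difference of OGN and 61.5% of that of MGP reached by then. These percentages depend on the scale. In mean CPM, OGN was at 0.64, 11.5 and 50.6 on the 3 days and MGP at 0.13, 6.24 and 23.2. Most of the rise in CPM thus came after D25. From D21 to D29 mean CPM rose 79.4-fold for OGN and 173-fold for MGP, from few D21 reads.

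**Figure D1:**
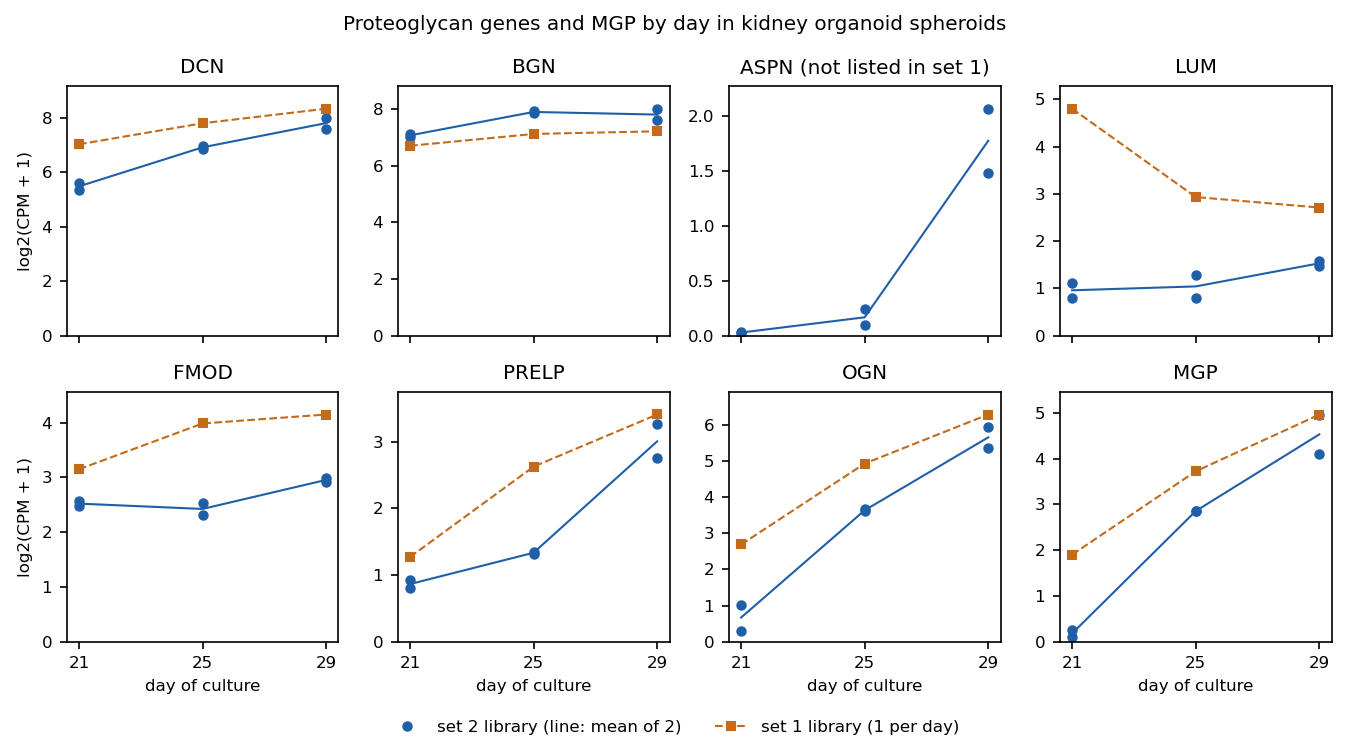
Level of each gene as log2(CPM + 1) against day of culture. Blue points are the 6 set 2 libraries with a line through the mean of 2, and orange squares the set 1 libraries, 1 per day. OGN and MGP climb on both intervals in both sets, ASPN and PRELP mostly after D25 in set 2, and LUM goes down in set 1 from 4.80 to 2.71.

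Corrected for exon length, the order of levels on D29 of set 2 was led by BGN. BGN had 107 and 80.4 reads per kilobase and 1e6 reads on D29, and DCN followed at 14.9 and 19.7, then OGN at 10.1 and 15.1, and MGP at 5.58 and 10.5. The ranges of DCN and OGN overlapped, as did those of OGN and MGP. FMOD (2.29 and 2.16), PRELP (0.99 and 1.49), ASPN (0.72 and 1.29) and LUM (0.74 and 0.66) were below these, and the last 3 overlapped in part. On D21 BGN was also first, at 58.0 and 53.5 reads per kilobase and 1e6 reads. Lengths are the union of all annotated exons, which for DCN is long at 12941 bases and so lowers its value. Without this correction, mean CPM on D29 was 226 for BGN and 223 for DCN. The lead of BGN over DCN on that day therefore rests on the lengths used.

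Set 1, which did not enter the ranking, gave the same direction for 6 of the 7 genes it lists (ASPN was not listed there). OGN had 2.69 on D21, 4.93 on D25 and 6.29 on D29, and MGP had 1.90, 3.73 and 4.97. DCN had 7.02, 7.79 and 8.32, PRELP 1.27, 2.63 and 3.41, FMOD 3.15, 3.99 and 4.15, and BGN 6.71, 7.13 and 7.22. LUM went the other way, at 4.80 on D21, 2.93 on D25 and 2.71 on D29, or 789, 177 and 141 reads. With 1 library per day set 1 allows no test. The share of all set 1 genes that kept their set 2 direction was not counted. Because the genes were chosen with earlier results of these data known, set 1 is not shown to be independent of that choice.

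The part of the time course that the selection did not use is whether D25 lay off the line between D21 and D29. In limma, fitted to all 27650 genes, 0 of the 8 genes passed an adjusted p under 0.05 for D25 against the midpoint of D21 and D29, and 0% of all genes did (2511 had an unadjusted p under 0.05, while edgeR called 144 and DESeq2 245). ASPN lay below the midpoint by −0.74 (SE 0.16, adjusted p = 0.209) and PRELP by −0.60 (SE 0.17, adjusted p = 0.335). BGN lay above it by 0.46 (SE 0.11, adjusted p = 0.262), MGP by 0.50 and OGN by 0.47, with adjusted p = 0.576 for MGP and 0.587 for OGN. Without the first D29 library (Org1) the days are unbalanced. D25 against the midpoint is then no longer separate from the contrast that selected the genes. The results for BGN and ASPN depended on that library, but calls from such a fit are not free of the selection. The ranges below include such fits. Over all alternatives the adjusted p ran from 0.0116 to 0.769 for BGN and from 0.0324 to 0.99995 for ASPN. MGP and BGN passed with DESeq2 (adjusted p = 0.0248 for MGP), and the range for MGP was 0.0248 to 0.819.

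The stromal marker genes, a list of 13 that contains none of the 8 genes, moved with the days. Of the 13, 11 rose and 0 fell from D21 to D29, against 10.0% of all genes called higher and 8.33% called lower by limma, and their summed level went from 5189 to 5877 CPM on D21 to 16280 to 20183 CPM on D29. In the same contrast 6 of 9 podocyte markers fell and 0 rose, and their sum went from 11398 to 11999 CPM on D21 to 3702 to 7855 CPM on D29. No stromal or podocyte marker was under 1 CPM in any set 2 library. Of 7 mural markers 6 rose and 0 fell, and of 9 cartilage markers, of which 2 to 3 were under 1 CPM in each library, 4 rose and 2 fell. Of neuronal markers 8 of 9 rose, of endothelial markers 5 of 7 rose and 2 fell, of muscle markers 5 of 10 rose, and of proximal tubule markers 7 of 9 fell. Set against the stromal sum, DCN was 0.773% to 0.804% of it on D21 and 1.18% to 1.26% on D29. OGN went from 0.00454% and 0.0177% on D21 to 0.249% and 0.300% on D29, and MGP from 0.00118% and 0.00384% to 0.0991% and 0.150%. BGN in contrast was 2.37% and 2.48% of the stromal sum on D21 and 1.58% and 0.958% on D29. FMOD was lower on D29 too, at 0.0773% and 0.0954% on D21 and 0.0427% and 0.0325% on D29. So was LUM, from few reads, at 0.0200% and 0.0143% on D21 and 0.0123% and 0.00887% on D29. PRELP and ASPN were higher against the stromal sum on D29 than on D21. How far a change in the share of stromal cells takes part in these differences was not tested.

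**Figure D2:**
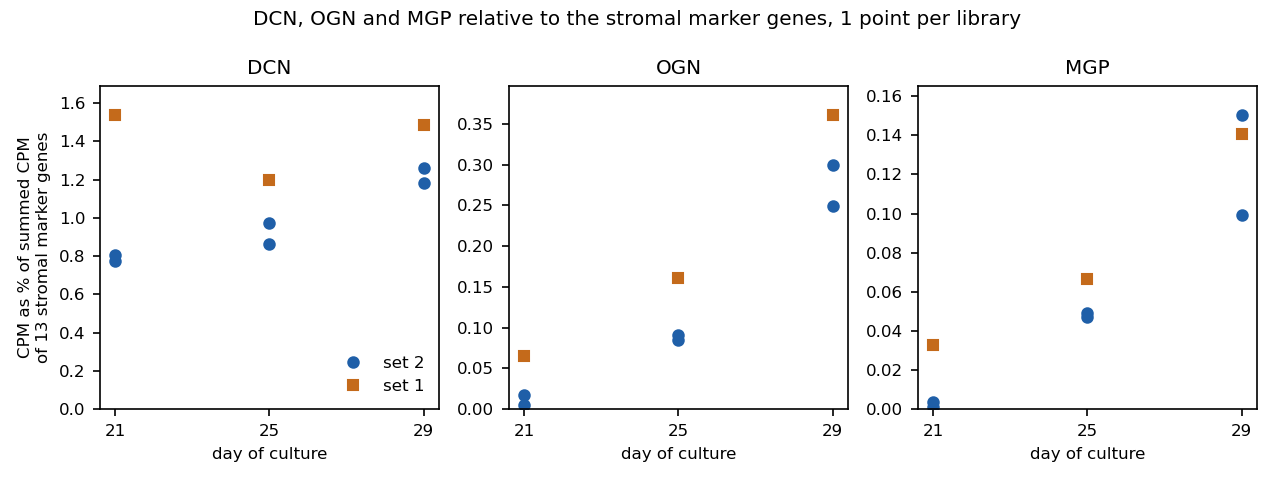
DCN, OGN and MGP as a percentage of the summed CPM of 13 stromal marker genes, by day, 1 point per library (blue set 2, orange set 1). OGN and MGP increase relative to the stromal markers in both sets, while DCN in set 1 is at 1.54% on D21 and 1.49% on D29.

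TNF changed these genes in both directions. By limma with time and treatment as terms, over 21093 genes, MGP and DCN rose and BGN and OGN fell, 4 of the 7 genes listed in the TNF table, against 8.42% of all genes called higher and 10.8% called lower. The TNF arm responded as labelled: CXCL10, CCL2, ICAM1, VCAM1 and NFKBIA, textbook targets of TNF signalling, all rose, by 2.47 to 4.25 on the log2 scale. Each arm and time had 1 library, so the times stood in for replicates and the p-values measure no spread between replicate libraries.

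MGP was at 2.04 in VC and 3.42 in TNF at 24 h, and at 2.10 and 3.77 at 48 h, or 169 and 509 reads and 163 and 751 reads. It was higher in TNF at both times, by 1.53 (SE 0.12, adjusted p = 4.85e-08 by limma), which is 3.11-fold in CPM at 24 h and 3.87-fold at 48 h. The overlapping C12orf60 was at 1.47 and 1.54 at 24 h and 1.60 and 1.64 at 48 h. OGN, the other gene with a very large difference over time, moved the opposite way. It was at 2.92 in VC and 2.46 in TNF at 24 h, and at 3.5 and 2.65 at 48 h, and fell by 0.66 (SE 0.12, adjusted p = 0.000812 by limma).

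BGN was at 7.62 in VC and 7.23 in TNF at 24 h, and at 7.70 and 7.13 at 48 h. Both TNF libraries were below both VC libraries, and BGN fell by 0.48 (SE 0.06, adjusted p = 2.99e-05 by limma). DCN was at 6.70 and 7.12 at 24 h and at 7.11 and 7.19 at 48 h, so most of its rise of 0.25 (SE 0.07, adjusted p = 0.0241 by limma) came from the earlier time. Its VC value at 48 h lay close to the TNF value at 24 h, and without the term for time the calls of DCN (adjusted p = 0.391) and OGN (adjusted p = 0.141) were lost. Over all alternatives the adjusted p ran from 0.00107 to 0.391 for DCN and from 9.08e-07 to 0.141 for OGN.

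LUM was at 2.06 and 2.09 at 24 h and at 2.11 and 2.67 at 48 h, a difference of 0.30 that did not pass (adjusted p = 0.149 by limma) but did with edgeR (adjusted p = 0.0484, from 0.0484 to 0.555 over the alternatives). FMOD was at 2.95 and 3.26 at 24 h and at 3.46 and 3.62 at 48 h, a difference of 0.23 (adjusted p = 0.158 by limma). PRELP was at 1.36 and 1.19 at 24 h and at 1.34 and 1.40 at 48 h, so its direction differed between the times (adjusted p = 0.820 by limma).

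Markers of several cell types moved in the same libraries. All 9 podocyte markers and all 9 proximal tubule markers fell, and the summed level of the podocyte markers was 6637 to 7142 CPM in VC and 3234 to 4362 CPM in TNF. Of the 13 stromal markers 6 rose and 2 fell, with sums of 7734 to 9376 CPM in VC and 9679 to 10038 CPM in TNF, and 0 stromal or podocyte markers were under 1 CPM in any library. Of 9 cartilage markers 5 rose and 0 fell, and of 7 mural markers 5 rose and 0 fell. Of 7 endothelial markers 5 fell and 0 rose, and of 9 neural progenitor or glial markers 5 rose and 2 fell. MGP was 0.0404% and 0.0349% of the stromal sum in VC and 0.10% and 0.126% in TNF at 24 h and 48 h, whereas DCN was 1.33% and 1.46% in VC and 1.43% and 1.45% in TNF. The part of cell type shares in the falls of BGN and OGN was not tested.

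**Figure D3:**
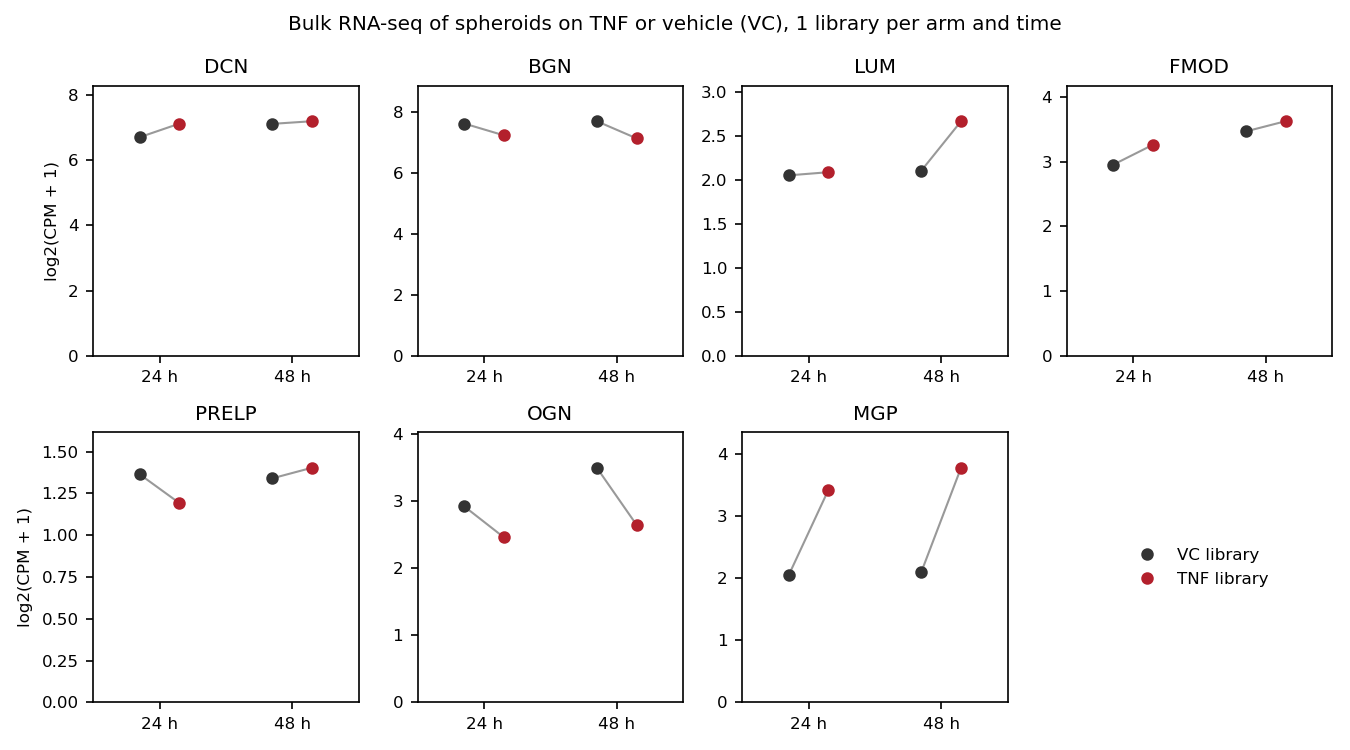
Level of the 7 genes listed in the TNF table as log2(CPM + 1) in VC (black) and TNF (red) libraries at 24 h and 48 h, 1 library per point, with lines joining the libraries of one time. MGP is higher and BGN and OGN lower in TNF at both times, and PRELP changes direction between the times.

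The single-cell libraries placed these transcripts in different cells. In the Ctrl library 6 of the 8 genes reached their highest level among named classes in stromal-like cells, BGN did so in podocyte-like cells and PRELP in those called neural progenitor or glial-like. The lead of stromal-like cells for FMOD was within counting error. Fewer of the 8 were highest in stromal-like cells at a finer clustering or when cells were gated by markers. The share of all genes that were highest in stromal-like cells was not counted. Cells were clustered without any of the 8 genes, and classes were named from separate markers. Levels are UMIs of a gene per 1e6 UMIs of the class, in brackets with an exact 95% Poisson interval that covers counting error only. There was 1 library per condition and no test. The Ctrl library had 11906 cells with a median of 6358.5 UMIs and the TNF library 23160 cells with a median of 2599, and 82 barcodes occurred in both.

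In the 2597 stromal-like Ctrl cells DCN was at 234 [226 to 242], MGP at 230.2 [222 to 238] and OGN at 114 [109 to 120.1]. The intervals of DCN and MGP overlapped, and both were above OGN. These cells held 14.0% of all UMIs of the library but 74.8% of the OGN, 69.5% of the MGP, 74.4% of the ASPN and 40.9% of the DCN UMIs. ASPN was at 8.26 [6.83 to 9.91] in stromal-like cells and at 1.21 [0.602 to 2.16] in muscle-like cells, the next named class. OGN was next highest in proliferating-like cells at 18.1 [15.1 to 21.4] and MGP in the same class at 65.8 [60.1 to 71.9]. LUM was at 15.2 [13.3 to 17.4] in stromal-like cells and at 6.47 [4.93 to 8.35] in muscle-like cells.

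DCN was also found well outside the stromal-like class. Besides stromal-like cells it reached 109.9 [103 to 118] in proliferating-like and 94.4 [89.5 to 99.5] in podocyte-like cells. An unnamed cluster of 856 cells led by SPRR2F, AMHR2, LHX9 and STAR held DCN at 190.5 [180.2 to 201], second only to stromal-like cells, while its OGN was at 3.13 and its MGP at 22.6. By detection the order of these was reversed: a DCN UMI was found in 56.5% of the cells of that cluster (median 6091 UMIs) and in 40.4% of stromal-like cells (median 4840 UMIs), against 5.60% of neuronal-like cells (median 6372 UMIs), a class taken here as a guide to free RNA.

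BGN had its own pattern. It was at 185 [178 to 192] in the 1398 podocyte-like cells, which held 57.4% of its UMIs, and at 64.7 [60.6 to 69.1] in stromal-like cells. A BGN UMI was found in 63.7% of podocyte-like cells (median 5541 UMIs), in 19.9% of stromal-like cells and in 3.66% of neuronal-like cells. FMOD was at 2.42 [1.68 to 3.38] in stromal-like and 2.26 [1.56 to 3.18] in podocyte-like cells, which do not differ beyond counting error. PRELP was at 8.65 [6.86 to 10.8] in cells of the neural progenitor or glial-like class, and at 3.49 [2.58 to 4.61] in stromal-like cells. That class held 43.0% of the PRELP UMIs and 0.791% (OGN) to 1.85% (BGN) of those of the other genes.

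At a clustering resolution of 0.5 an endothelial-like class of 72 Ctrl cells appeared, and MGP was at 333 [254 to 430] in it from 59 UMIs. LUM was then highest there too, at 22.6 from 4 UMIs [6.16 to 57.8], so 4 of the 8 genes had stromal-like cells as their highest class.

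**Figure D4:**
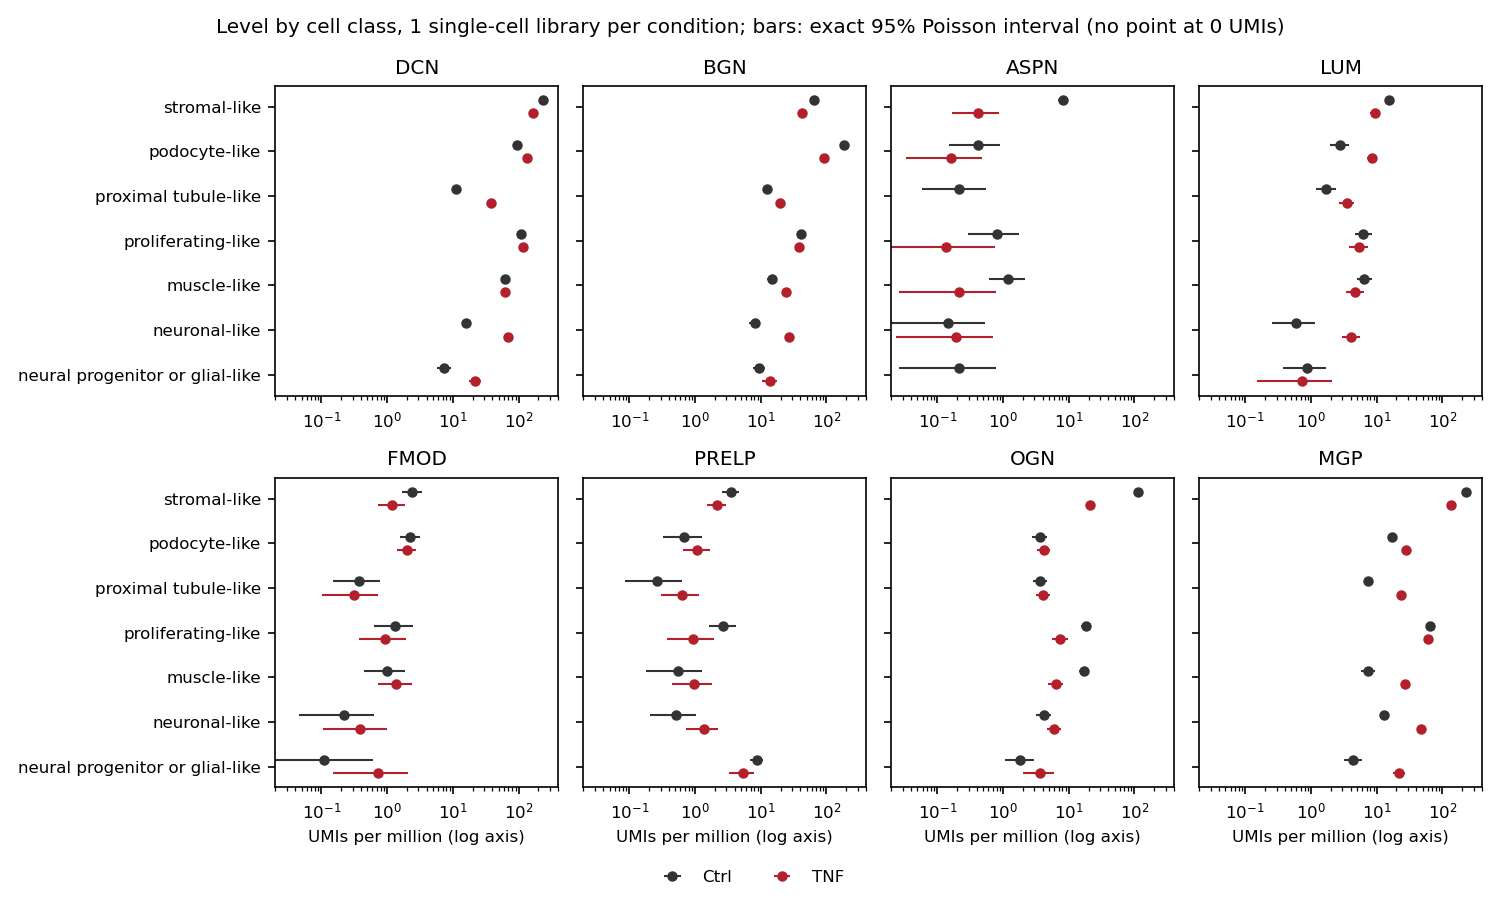
UMIs per 1e6 (log axis) of each gene in 7 named cell classes, with exact 95% Poisson intervals, in the Ctrl (black) and TNF (red) single-cell libraries, 1 library each. OGN, MGP and ASPN peak in stromal-like cells, BGN in podocyte-like cells and PRELP in neural progenitor or glial-like cells.

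In stromal-like cells all 8 genes were lower in the TNF library than in the Ctrl library, and the size differed widely. The share of all genes that were lower in this class was not counted. ASPN was at 0.418 in TNF against 8.26 in Ctrl, from 7 and 116 UMIs, a ratio of 0.0506 [0.0199 to 0.108]. OGN was at 21.1 against 114, a ratio of 0.184 [0.164 to 0.207]. The other 6 ratios lay between 0.493 (FMOD) and 0.709 (DCN), with MGP at 0.592 [0.561 to 0.624]. The intervals of ASPN and OGN lay below those of the other 6 genes. Without the cells of highest doublet score the ratios of FMOD and PRELP had intervals that include 1. Gating by markers gave a wider stromal-like class, not the same set of cells. In Ctrl it held 4285 MGP UMIs against 3233, at a lower level of 115 against 230. In this gated class ASPN had a ratio of 0.0536 and OGN of 0.242. How far the added cells take part in the gated ratios was not tested. The other 6 gated ratios were nearer 1, between 0.661 (FMOD) and 0.867 (BGN), with MGP at 0.757. The gated interval of PRELP, 0.535 to 1.02, included 1. In podocyte-like cells BGN was at 91.4 in TNF against 185 in Ctrl, a ratio of 0.494 [0.464 to 0.525]. Other genes were higher with TNF in that class, with ratios of 1.40 [1.31 to 1.5] for DCN, 1.62 [1.39 to 1.90] for MGP and 3.04 [2.13 to 4.42] for LUM. In proximal tubule-like cells DCN had a ratio of 3.37 [2.87 to 3.96] and MGP of 3.13 [2.57 to 3.83], but when cells were gated by markers the ratio of DCN there was 0.894 [0.26 to 2.50], from 18 UMIs in Ctrl and 5 in TNF. Without the cells of highest doublet score these ratios were 5.89 for DCN and 6.03 for MGP, and that of MGP in podocyte-like cells was 2.66.

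The markers that named these classes moved too. The summed level of the 13 stromal markers in stromal-like cells was 5539 in TNF and 8370 in Ctrl, a ratio of 0.662, and that of the 9 podocyte markers in podocyte-like cells had a ratio of 0.549. In neuronal-like cells, a class not known for these transcripts, the stromal sum had a ratio of 2.56. There DCN was at 70.1 in TNF against 15.7 in Ctrl, MGP at 47.7 against 12.9 and BGN at 26.5 against 8.07, while OGN was at 5.99 against 4.15. These ratios depended on the cells of highest doublet score, which were not shown to be doublets. Without those cells the neuronal-like Ctrl levels were 4.27 for DCN, 2.41 for MGP and 2.60 for BGN. The ratios went from 4.46 to 16.0 for DCN, from 3.68 to 20.1 for MGP and from 3.28 to 9.81 for BGN. The part of free RNA, or of the lower depth of the TNF library, in the ratios of single classes was not tested. Within stromal-like cells the intervals of the OGN, ASPN and MGP ratios lay below the ratio of the stromal sum. That of DCN, 0.709 [0.674 to 0.746], lay above it, and the intervals of BGN, LUM, FMOD and PRELP included it. Without the cells of highest doublet score the MGP ratio was 0.651 [0.615 to 0.688], and with marker gating 0.757 [0.725 to 0.791]. The stromal sum was not computed for either setting, so the place of MGP below it holds for the first clustering only.

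Over whole libraries, where no class boundary enters, OGN was at 8.32 [7.73 to 8.93] in TNF and 21.3 [20.5 to 22.3] in Ctrl, and ASPN at 0.165 against 1.55. MGP was at 52.6 [51.2 to 54.2] in TNF and 46.2 [44.9 to 47.6] in Ctrl, and DCN at 100.3 against 79.9. BGN was at 41.8 [40.5 to 43.2] in TNF and 46.8 [45.4 to 48.1] in Ctrl. Class shares enter these sums and differed between the libraries. Stromal-like cells held 14.0% of the UMIs in Ctrl and 18.4% in TNF, but 21.8% and 20.4% of the cells. The part of class shares in the sums was not tested. Side by side with the bulk table, OGN and BGN were lower with TNF in both materials. MGP and DCN were higher in both when cells were summed, but lower within stromal-like cells. For MGP only the direction was shared. It was 3.11-fold higher in bulk at 24 h, but at 52.6 against 46.2 in the summed cells. The 2 materials were unlike in more than treatment. Bulk RNA was from isolated spheroids on day 25, with 24 h and 48 h pooled in the estimate. Single cells were from whole wells on day 24, at 24 h only.

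Of 11 other family genes fixed as a list, 6 were listed in set 2, and 1 was called between D29 and D21. PODN, encoding the family member podocan, rose from 0.78 and 0.71 on D21 to 3.35 and 3.46 on D29, by 2.66 (SE 0.15, adjusted p = 8.39e-05 by limma). TSKU, which encodes tsukushi, had a difference of 0.29 (adjusted p = 0.0727 by limma), and OPTC, PODNL1, ECM2 and CHADL lay between −0.06 and 0.07. Of the neighbours of OGN and ASPN, ECM2 did not share their large rises, at −0.04 in set 2. In set 1 ECM2 differed by −1.14 from D21 to D29, at 95 and 23 reads. OMD was not listed, so nothing can be said of it in bulk. Under TNF, TSKU rose by 0.21 and ECM2 fell by 0.50 on the log2 scale (adjusted p = 0.0377 for TSKU and 0.00569 for ECM2 by limma), and PODN, PODNL1 and CHADL did not pass. Without the term for time both calls were lost, with adjusted p = 0.222 for TSKU and 0.135 for ECM2 by limma, and with DESeq2 too (range over alternatives 0.00563 to 0.222 for TSKU and 0.0011 to 0.255 for ECM2). In Ctrl single cells PODN was highest among named classes in stromal-like cells, at 6.05 [4.83 to 7.48]. There it was at 1.85 [1.26 to 2.63] in TNF. The unnamed cluster led by SPRR2F, AMHR2, LHX9 and STAR held PODN at 8.79 [6.69 to 11.3] in Ctrl, an interval that overlaps that of stromal-like cells. CHADL, like PRELP, had its highest level in the neural progenitor or glial-like class, at 10.5 [8.51 to 12.8].

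Genes that act on these proteoglycans were called as follows, beside 10.0% of all genes called higher and 8.33% lower with time, and 8.42% higher and 10.8% lower under TNF. Of 12 proteases and procollagen enhancers 7 rose and 0 fell from D21 to D29, with a median difference of 0.56 against −0.02 over all genes. They included ADAMTS5 (1.77), an aggrecanase, MMP2 (1.77), a gelatinase, and PCOLCE (1.64), which enhances procollagen cleavage by the BMP1 family. Under TNF 4 of the 12 rose and 3 fell, led by HTRA1 (−1.27), a secreted serine protease, and the tolloid-like genes TLL1 (0.87) and TLL2 (0.75).

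Of 13 receptors and signalling partners, 7 rose and 2 fell with time and 6 rose and 0 fell under TNF. EGFR, a receptor that decorin binds, rose by 1.17 with time and 1.13 under TNF. TLR2, a receptor for soluble biglycan, rose by 0.94 under TNF, where BGN itself fell. TGFB2, a ligand of the growth factor family that decorin binds, rose by 1.24 with time and 0.37 under TNF, and CCN4, a matricellular protein gene, by 1.49 and 0.51. Without the term for time the TNF calls of TGFB2 and CCN4 were lost (adjusted p = 0.458 for TGFB2 and 0.0969 for CCN4 by limma), and 19 in place of 48 genes of all pathway lists were called. Over the alternatives the adjusted p began at 0.000233 for TGFB2 and 8.06e-08 for CCN4.

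Of 23 genes for chondroitin and dermatan sulfate synthesis 8 rose and 1 fell with time, and 4 rose and 1 fell under TNF. CHSY3, a chondroitin synthase, had the largest rise with time (1.14), a call lost without the second D21 library (adjusted p = 0.072 by limma, from 6.31e-06 upward over the alternatives), and CHST15, a chondroitin sulfotransferase, rose by 0.76 with time and 1.19 under TNF. DSEL, a dermatan sulfate epimerase-like gene, fell by 0.81 under TNF. Of 11 genes for keratan sulfate synthesis 2 rose and 1 fell with time, among them the sulfotransferase genes CHST1 (1.88) and CHST2 (−1.26), and 2 rose and 2 fell under TNF.

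Beside MGP, the list of 15 vitamin K cycle and Gla protein genes had 2 that rose and 1 that fell with time, and 0 that rose and 4 that fell under TNF. The counts with time are near the shares over all genes, 10.0% higher and 8.33% lower. GAS6, a vitamin K-dependent receptor ligand, fell by 0.99 with time. Under TNF, where MGP rose, GGCX, the carboxylase that modifies Gla proteins, changed by −0.25 and FAM20C, a secretory kinase, by −0.68. The call of GGCX was lost with DESeq2, without the variance trend and without the term for time (adjusted p from 0.00587 to 0.157 over the alternatives). Among mineralization regulators 2 of 15 rose and 5 fell with time, with RUNX2 (−1.40), BMP7 (−1.33), SOST (−1.21) and ALPL (−1.18) the largest. The call of SOST was lost under 4 alternatives, among them leaving out either D21 library (adjusted p from 4.53e-05 to 0.143 over the alternatives). SOST, a Wnt antagonist gene that is among the leading genes of the podocyte-like class, also fell under TNF (−1.06), where RUNX2 rose by 0.68.

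Other proteoglycans went in both directions, 9 of 21 rising and 4 falling with time, and 7 rising and 4 falling under TNF. NCAN (2.46), for the neural proteoglycan neurocan, and SPOCK1 (2.37), for a testican, had the largest rises with time and ACAN, the gene for the cartilage proteoglycan aggrecan, the largest fall (−2.41). Under TNF the neural proteoglycan gene BCAN rose by 2.55, the largest change in the list. After each library was centred on its median, 2408 genes were called higher and 4667 lower between D29 and D21, against 2778 and 2303 before.

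**Figure D5:**
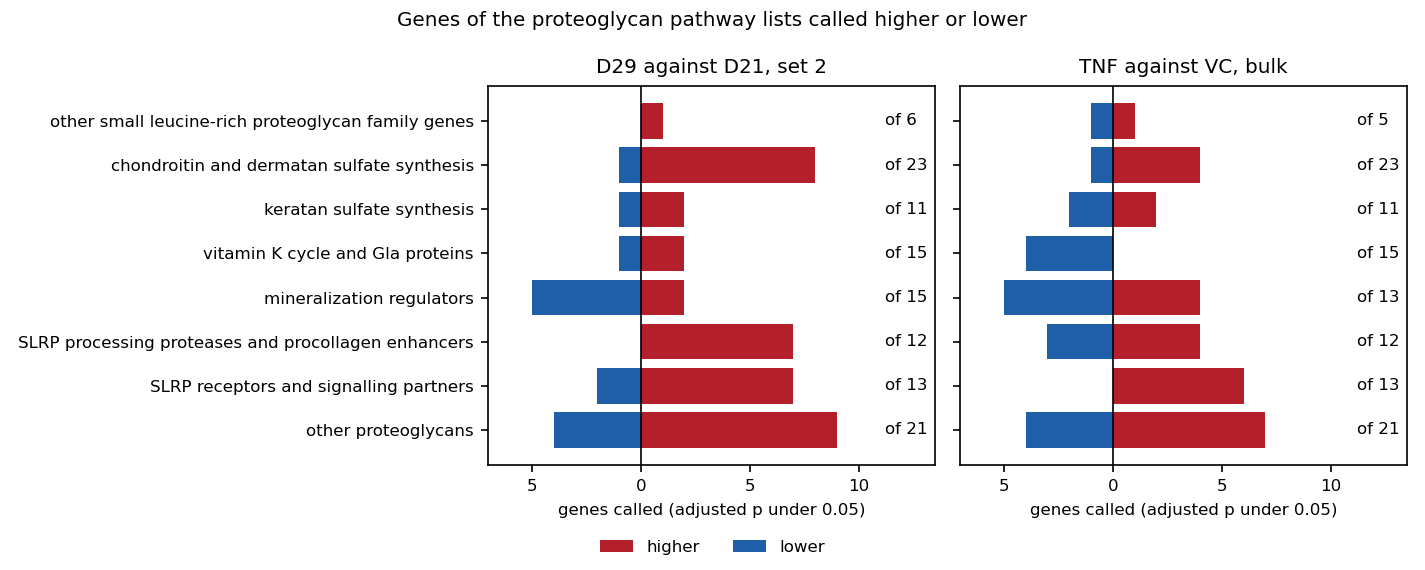
Number of genes called higher (red) or lower (blue) at an adjusted p under 0.05 by limma in each pathway list, with the number listed at the right, for D29 against D21 in set 2 (left) and TNF against VC in bulk (right). Proteases and procollagen enhancers are called higher with time in 7 of 12 and lower in 0.

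The genes whose values ran most like each of the 8 were sought over the 13 bulk libraries, each table centred on its own mean, among 16241 genes with a mean of at least 1 in every table. ASPN could not be included. DCN was most like RSPO3 (r = 0.995), itself a leading gene of the stromal-like class, and OGN most like LDB2 (0.993), MMP2 (0.992) and ELN (0.992), MMP2 and ELN being matrix genes. MGP was most like ADAMTSL2 (0.987), and PRELP like WLS (0.990) and SPARCL1 (0.981). BGN (ARHGEF37, 0.979), FMOD (NTHL1, 0.965) and LUM (CAPZA1, 0.955) had less close and unlike neighbours. Among the genes themselves OGN and DCN had r = 0.970 and DCN and MGP 0.966, whereas LUM had values from −0.33 to −0.01 with those listed in all tables. The libraries share days and treatment, and they include the libraries of the contrast that selected these genes. Genes chosen for a rise over the days tend to run alike, and like other genes that rise over the same days. High r values therefore follow in part from the selection and are no separate evidence of a link between genes. All these values describe the 13 libraries only.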

How the data were processed

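Bulk libraries (13, in 3 tables) and single-cell libraries (2) of the 16 samples were used; the sample D25 NLW50 Ctrl was not analysed here. The authors aligned reads with STAR (2.7.8a in the submitters' processing notes), counted them per gene with HTSeq (0.11 in those notes) and deposited log2 values, log2(CPM + 1) with 0.5 added to each count. Whole reads recovered from these values came out whole for 100% of them, none lying over 1.68e-08 away from an integer. The deposited single-cell UMI counts were made with Cell Ranger (2.1.1 in the notes). Sources differ on the versions of HTSeq and Cell Ranger, and those given here are the ones of the notes. No source used here states the strand setting of the bulk counting.

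Genes were tested with limma 3.58.1 (variance trend, Benjamini-Hochberg over all genes, threshold 0.05): set 2 with 1 mean per day, the TNF table with time and treatment as terms. Alternatives were edgeR 4.0.16 and DESeq2 1.42.0 on the recovered reads, no 1 added to the CPM, median centring, genes with a mean log2 value of at least 1, no trend, the replicate block, treatment without time, and leaving out each library. The limma fits and the clustering were checked on simulated data.

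Cells with over 500 genes were clustered in scanpy 1.11.5 (Leiden resolution 0.25, after Harmony correction for library, written in numpy 2.4.6) once 145 genes, among them the 8 described and the pathway lists, were left out. A cluster was named when at least 3 fixed markers were raised in it. The automatic doublet limit marked 0 cells, so doublets were kept, and the cells with the highest scores (9.99% of Ctrl and 18.5% of TNF cells) were left out only as an alternative. Poisson intervals (95%) and the floor of 3 counts per library cover counting error only. Of genes in the pathway lists, the 4 with the largest change among those called were eligible to be named, with all other family genes. The genes described and all lists were chosen with earlier results of these data known.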

Additional observations from a re-analysis of the deposited data

Results flagged for a closer look

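LUM went in opposite directions in the 2 untreated sets. From D21 to D29 it differed by −2.09 on the log2 scale in set 1 and by 0.57 in set 2, and from D25 to D29 by −0.22 in set 1 and by 0.49 in set 2. PRELP differed between TNF and VC by −0.17 at 24 h and by 0.0636 at 48 h, from 67 to 97 reads per library. With 1 library per day in set 1, and 1 per arm and time in the TNF table, none of these differences was tested.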

How the results depend on the processing

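Of 53 alternative values for the main counts, 47 stayed within 1.5 times of the value reported and 6 moved. For D25 against the midpoint of D21 and D29 the number of the 8 genes called was 0, and 2 (BGN and MGP) with DESeq2. The results for BGN and ASPN depended on the first D29 library. Leaving out a D21 or D29 library ties this contrast to the one that selected the genes, so calls from those fits are not counted. Under TNF 4 genes were called, and 2 without the term for time; edgeR called 5, LUM among them. Of the genes in the pathway lists 52 were called between D29 and D21, 34 to 56 when each library was left out, with 34 without either D21 library; under TNF 48 were called, and 19 without the term for time. Over all genes DESeq2 called 1206 higher and 978 lower under TNF, against 1776 and 2285 by limma. The causes were not tested. Directions turned for genes that had not passed the test: leaving out each library gave −0.447 to 0.0411 for LUM at D25 (0.0411 without the second D25 library), −0.165 to 0.0411 for PODNL1 from D21 to D29 (0.00325 without the second D21 and 0.0411 without the first D29 library) and −0.277 to 0.199 for ECM2 (0.036 without the first D21 and 0.199 without the second D29 library). ECM2 was at 0.0101 with edgeR and CHADL at −0.0244 after median centring. Of 855 values for single genes 792 kept direction and side of the threshold, 43 no longer passed, 7 newly passed and 6 moved.

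Same-numbered libraries of set 2 deviated together in part (r = 0.143, 0.0753 and 0.271 over 18572 genes for the 3 pairs of days). Whether the numbers Org1 and Org2 mark a pairing across days cannot be told from these values. With the replicate block 0 of the 8 genes were called at D25, and 61 pathway genes between D29 and D21. Marker gating placed 29414 of 35066 cells, 28.4% of them near a limit, and gave 4 of 8 genes highest in stromal-like cells. Counting unnamed clusters gave no separate value for the comparison of TNF with Ctrl stromal-like cells. Depth limits ASPN, LUM, FMOD and PRELP most.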
